A study of Mus musculus with 64 samples.

Results

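Interferon-stimulated genes are the genes that cells switch on when interferon reaches them, and 43 of them were followed here in microglia, the resident macrophages of the brain. They were given as a list of symbols and looked up in a table of 49671 genes, where each matched a single gene. The 43 genes had reads in all 64 libraries and passed the filter on low counts in every comparison below. The cells came from adult male C57BL/6 mice (substrain N per the methods) kept under a reversed light cycle, by cold mechanical dissociation and magnetic sorting of hippocampal and frontal cortical tissue with beads against CD11b, a surface protein that microglia share with other myeloid cells. Each region had 16 day and 16 night libraries of total RNA. Within each phase the libraries were split evenly over conditions named Soci, Cogn, Ctr0 and Ctr1, which gave 16 groups of 4. The labels did not say what these names stand for, and no genotype or transgene differed between groups.

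Type I interferons bind the receptor made of IFNAR1 and IFNAR2, which activates the kinases JAK1 and TYK2. These lead STAT2 to join IRF9 in a complex that binds a DNA motif, the interferon-stimulated response element, in front of its targets. The products sense foreign nucleic acids, block viral translation and assembly, and feed back on the pathway, and in microglia a low constitutive level of this program is a well known part of brain immunity.

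Total counts ranged from 11.6 to 84.5 M in the hippocampus and from 10.2 to 26.3 M in the frontal cortex. 3 hippocampal libraries (Night Soci, Night Cogn and Day Cogn, each replicate 4) were sequenced most deeply, and hippocampal Day Soci replicate 4 held the highest level of the 43 genes. The 8 microglia markers were detected in every group, with summed levels of 11200 to 23400 CPM, counts scaled to a common library total. Markers of other cells were present in every library. Their lowest sums were 188 CPM for endothelial cells, 272 CPM for astrocytes, 88.4 CPM for oligodendrocytes and 41.9 CPM for neurons. Border macrophage markers summed to at least 99.8 CPM and choroid plexus markers to at least 7.73 CPM. The preparations thus also carried RNA of other cells. The 6 lymphocyte markers together had 301 counts in all libraries, at most 21 in a library. In such bulk samples fewer cells of a type and less RNA per cell cannot be told apart.

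Response elements were searched first, since the pathway acts on its targets through them. The core, searched on both strands as GAAA, any 2 bases and GAAA in RefSeq promoter windows from 250 bases before to 50 after the start (build GRCm38.p6), was held by 20 of the 31 genes with a window, or 64.5%. Over the 27025 genes with windows the share was 3.99%. The gamma-activated site, searched in the same windows as TTCNNNGAA, was found in 6 of the 31 (19.4%) against 9.55% of all genes. The core with 10 bases on each side is shown for 12 of the genes to which the results return, read on the strand of the gene and with the core in capitals.

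Isg15: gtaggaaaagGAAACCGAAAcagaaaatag

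Ifit1: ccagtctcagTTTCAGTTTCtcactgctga

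Ifit3: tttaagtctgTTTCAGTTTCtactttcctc

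Ifit3b: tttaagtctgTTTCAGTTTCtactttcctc

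Stat2: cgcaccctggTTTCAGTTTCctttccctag

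Bst2: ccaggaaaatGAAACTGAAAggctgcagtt

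Igtp: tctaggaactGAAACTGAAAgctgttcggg

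Irgm1: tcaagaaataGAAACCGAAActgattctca

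Ddx58: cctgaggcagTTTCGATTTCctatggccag

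Slfn8: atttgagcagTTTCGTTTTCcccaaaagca

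Trim30a: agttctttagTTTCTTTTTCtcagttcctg

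Rsad2: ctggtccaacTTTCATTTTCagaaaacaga

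The stretches lay at chr4:156200871-156200900 on the minus strand for Isg15, chr19:34640794-34640823 on the plus strand for Ifit1, and chr10:128270266-128270295 on the plus strand for Stat2. Those of Ifit3 (chr19:34583397-34583426) and Ifit3b (chr19:34607793-34607822) were the same letter for letter, on the plus strand. The others were Bst2 at chr8:71537577-71537606, Irgm1 at chr11:48871425-48871454, Ddx58 at chr4:40239804-40239833, Slfn8 at chr11:83020839-83020868, Trim30a at chr7:104465210-104465239 and Rsad2 at chr12:26456553-26456582, all on the minus strand, and Igtp at chr11:58199512-58199541 on the plus strand. Counted from the transcript start, the core began at -72 in Isg15, -85 in Ifit1, -24 in Irgm1 and -120 in Rsad2, and at 3, inside the transcript, in Ddx58. Oas2, Mx1, Mx2, Usp18, Ifi27l2a, Ifi204, Dhx58, Zbp1, Parp14, Parp9, Rtp4 and Iigp1 had no window.

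Levels per kilobase of exon set the order of the genes. Trim30a, a regulator of Toll-like receptor signalling, was the highest at 15.6 CPM per kb over the 64 libraries. It was followed by Slfn8, a Schlafen protein, at 12.1, by Ifitm3, which blocks entry of viruses through membranes, at 11.1, and by the viral tether Bst2 at 10.5. Irf9 stood at 6.50 CPM per kb and its partner Stat2 at 5.32. Isg15, the ubiquitin-like modifier that names the family, stood at 2.22 and Irf7, the amplifier of interferon production, at 1.67 CPM per kb. The lowest were Zbp1 at 0.462, Ifi44 at 0.285 and Oas3 at 0.165. The first 2 of this order overlapped from library to library, with Slfn8 at 28.2 to 73.2 CPM and Trim30a at 36.1 to 82.3 CPM over exon lengths of 4091 and 4111 bases. Oas3 fell to 2 counts in its lowest library, below the floor of 3 counts set for a level. Reads of near-identical copies make some values uncertain. Of the 50-base words in its transcripts, Oas1a shared 57.6% with other genes, Ifit3 51.2% and Ifit3b 45%. Ifi204 came next at 20%, then Slfn8 at 14.6% and Herc6 at 12.5%. Igtp overlapped Irgm2 on the same strand over 7974 bases of the gene body, and 11.8% of its words were shared with it.

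In the hippocampus the first question was whether the genes differed between day and night. 16 of the 43 passed an adjusted p of 0.05 in edgeR's quasi-likelihood test, against 42.2% of the 15527 genes tested, so the share of 37.2% was not above the background. 15 of them were higher by day (23.4% of all genes tested were) and 1 was lower (18.8% of all genes). At an unadjusted p under 0.05 there were 18, against 49.6% of all genes. The median log2 change of day over night was 0.18 for the 43 genes and 0.023 for all genes, and 32 of the 43 were positive.

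The group of PARP9, PARP14 and DTX3L, enzymes of ADP-ribosylation and ubiquitination that act together after interferon, rose as a whole. Dtx3l ranged from 45.9 to 60.3 CPM (median 52.8) in the 16 day libraries and from 33.5 to 50.0 CPM (median 43.9) in the 16 night libraries. 11 of the day libraries lay above every night library. Its log2 change was 0.32 ± 0.049 (SE; adjusted p = 3.46e-06). Parp9 changed by 0.26 ± 0.045 (adjusted p = 1.8e-05), with day libraries at 27.1 to 37.3 CPM and night libraries at 24.2 to 32 CPM. Parp14, at 70.5 to 109 CPM by day and 47.4 to 87.3 CPM by night, changed by 0.33 ± 0.066 (adjusted p = 0.000118). All 16 day libraries of each of these genes were above the night median, although the ranges overlapped.

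Among the Schlafen genes, Slfn8 ranged from 44.8 to 73.2 CPM by day (median 52.5) and from 28.2 to 52.9 CPM by night (median 38.9). 12 night libraries were below every day library, and the log2 change was 0.40 ± 0.072 (adjusted p = 3.87e-05). Slfn2 changed by 0.41 ± 0.114 (adjusted p = 0.00402), while Slfn5 had a value of 0.097 ± 0.118 and did not pass. Trim30a rose in the same way, from a night median of 52.3 CPM (36.1 to 65.3) to a day median of 65.5 CPM (53.4 to 82.3). Its log2 change was 0.37 ± 0.064 (adjusted p = 2.4e-05), and every day library was above the night median.

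3 of the 6 nucleic acid sensors rose. Ddx58, which encodes the RNA sensor RIG-I, ranged from 27.8 to 39.0 CPM by day and from 22.6 to 31.6 CPM by night, a log2 change of 0.27 ± 0.052 (adjusted p = 8.4e-05). Ifi204, a DNA sensor, changed by 0.53 ± 0.158 (adjusted p = 0.00704), and Ifih1, which encodes the RNA sensor MDA5, by 0.18 ± 0.065 (adjusted p = 0.0233). Ifih1 passed in 7 of its 15 alternative fits. Dhx58, Zbp1 and Eif2ak2, the latter encoding the kinase PKR that halts translation, did not pass. Among the transcription factors, Irf9 rose by 0.24 ± 0.051 (adjusted p = 0.000301), whereas Stat2 had 0.033 ± 0.058 and Irf7 0.095 ± 0.138.

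Of the 7 genes of GTPase families, Irgm1 rose by 0.32 ± 0.058 (adjusted p = 3.86e-05) and Igtp by 0.25 ± 0.062 (adjusted p = 0.00164). Mx1, Mx2, Gbp2, Gbp3 and Iigp1 lay between -0.013 and 0.043 and did not pass. Mx2 is annotated as a polymorphic pseudogene. Herc6, the ISG15 ligase of the mouse, rose by 0.36 ± 0.098 (adjusted p = 0.00324), but neither Isg15 (-0.076 ± 0.161) nor its protease Usp18 (0.15 ± 0.145) passed. Ifit2 (0.37 ± 0.145, adjusted p = 0.0356) and Oas2 (0.515 ± 0.211, adjusted p = 0.0479) were the single calls of the IFIT and OAS families. The Ifit2 call was lost in 10 of 15 alternative fits and the Oas2 call in 14 of 15.

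Irf7, Stat2 and Isg15 did not separate day from night. Irf7 ranged from 3.52 to 10.9 CPM by day (median 5.51) and from 3.52 to 8.19 CPM by night (median 6.15). Stat2 had medians of 30.8 and 30.2 CPM, and Isg15 of 1.52 and 1.81 CPM. Day and night libraries of each overlapped widely, and 2 day libraries of Irf7 were above every night library.

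Rsad2 went the other way. This gene, which encodes the antiviral radical enzyme viperin, ranged from 1.46 to 4.95 CPM by day (median 2.76) and from 2.12 to 6.82 CPM by night (median 4.20). Only 2 day libraries were above the night median. Its log2 change was -0.51 ± 0.159 (adjusted p = 0.0103). Its genomic neighbour Cmpk2, a mitochondrial nucleotide kinase, had -0.10 ± 0.126 and did not pass.

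The calls changed with the scaling and when marker levels of other cells were added to the fit. With library totals alone in place of scaling factors the median of all genes moved to -0.14 on the log2 scale, and 1 member, Rsad2, was called, with 0 higher and 1 lower. Relative to all genes the members' median then stood 0.18 higher, against 0.16 with scaling factors. Between day and night all 7 border macrophage markers rose (summed levels of 197 to 424 CPM by day and 99.8 to 220 CPM by night), as did 7 of the 8 microglia markers (14100 to 19800 and 11800 to 16400 CPM). All 6 choroid plexus markers (7.73 to 1500 and 29.1 to 5000 CPM), 5 of 6 astrocyte markers (313 to 509 and 327 to 1820 CPM) and 4 of 6 endothelial markers (232 to 856 and 473 to 1310 CPM) fell. With the marker levels of 7 other cell types as covariates, 0 of the 43 genes and 73 of all genes were called by edgeR, with 1 and 2028 at an unadjusted p under 0.05, while the members' median was 0.15. Marker levels themselves differed between day and night, so this fit cannot separate phase from other cells, and their part was not tested. Without the replicate 4 libraries 9 were called, and the share of all genes in that refit is not given here.

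In the frontal cortex 13 of the 43 genes passed, against 41.8% of the 14975 genes tested. 10 were higher by day (20.6% of all genes tested) and 3 were lower (21.3%). At an unadjusted p under 0.05 there were 15, against 49.3% of all genes. The median log2 change was 0.041 for the members and -0.018 for all genes, and 24 of 43 were positive, so the members as a whole lay close to the other genes.

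The 3 PARP9, PARP14 and DTX3L genes rose here too. Dtx3l, at 46.1 to 75.3 CPM by day (median 56.6) and 42.0 to 60.3 CPM by night (median 49.0), changed by 0.23 ± 0.055 (adjusted p = 0.00102). Parp14 changed by 0.18 ± 0.045 (adjusted p = 0.00157) and Parp9 by 0.18 ± 0.046 (adjusted p = 0.00184). 15 of 16 day libraries of each exceeded the night median, with overlapping ranges.

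Slfn8 had the lowest p in this region. It ranged from 42.8 to 72.6 CPM by day (median 56.9) and from 37.9 to 52.6 CPM by night (median 47.3), and 13 day libraries exceeded every night library. The log2 change was 0.28 ± 0.057 (adjusted p = 0.000238). Irf9, at 31.0 to 47.8 CPM by day and 28.3 to 36.6 CPM by night, changed by 0.21 ± 0.044 (adjusted p = 0.0003). Slfn2 (0.45 ± 0.099, adjusted p = 0.000523), Trim30a (0.21 ± 0.048, adjusted p = 0.000806) and Irgm1 (0.235 ± 0.056, adjusted p = 0.00119) followed. Bst2, which holds budding viruses at the membrane, rose by 0.29 ± 0.079 (adjusted p = 0.00422) and Ddx58 by 0.14 ± 0.047 (adjusted p = 0.0169).

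The 3 genes that were lower by day in the cortex were Mx1, Rsad2 and Sp100. Mx1, of the dynamin-like GTPase family, ranged from 3.31 to 6.84 CPM by day (median 4.86) and from 3.45 to 9.60 CPM by night (median 6.41). Its log2 change was -0.34 ± 0.119 (adjusted p = 0.0222). Rsad2, at 1.65 to 4.84 CPM by day and 1.43 to 7.21 CPM by night, changed by -0.44 ± 0.175 (adjusted p = 0.0413), and Sp100, a nuclear body protein, by -0.30 ± 0.121 (adjusted p = 0.0459). At most 2 day libraries of each were above the night median. The Rsad2 and Sp100 calls were each lost in 8 of 14 alternative fits. All 4 OAS genes, whose products make the oligoadenylates that activate RNase L, were negative, from -0.29 (Oasl2) to -0.046 (Oas1a), and none passed.

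Here too 6 of 7 border macrophage markers rose (221 to 458 CPM by day and 122 to 316 CPM by night) and 5 of 6 astrocyte markers fell (323 to 600 and 272 to 2440 CPM), while no endothelial marker passed. With library totals alone 3 members were called, 1 higher and 2 lower. With the marker levels of other cell types as covariates 10 were called, all of them lower by day and 2 of them shared with the 13, and Irgm1 changed sign to -0.070. The shares of all genes called in both refits are not given here, so these counts are not read as particular to the members.

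9 genes were called higher by day in both regions: Ddx58, Dtx3l, Irf9, Irgm1, Parp14, Parp9, Slfn2, Slfn8 and Trim30a. They were 9 of the 15 hippocampal and 9 of the 10 cortical calls in that direction. Rsad2 was the gene called lower in both. The test of the difference between regions in the day and night change called 0 of the 43 genes, against 1.19% of 16069 genes. At an unadjusted p under 0.05 edgeR found 1 member (9.88% of all genes), Oas2 (adjusted p = 0.396), and DESeq2 also called 0. The differing calls of the regions were therefore not shown to differ.

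**Figure D1:**
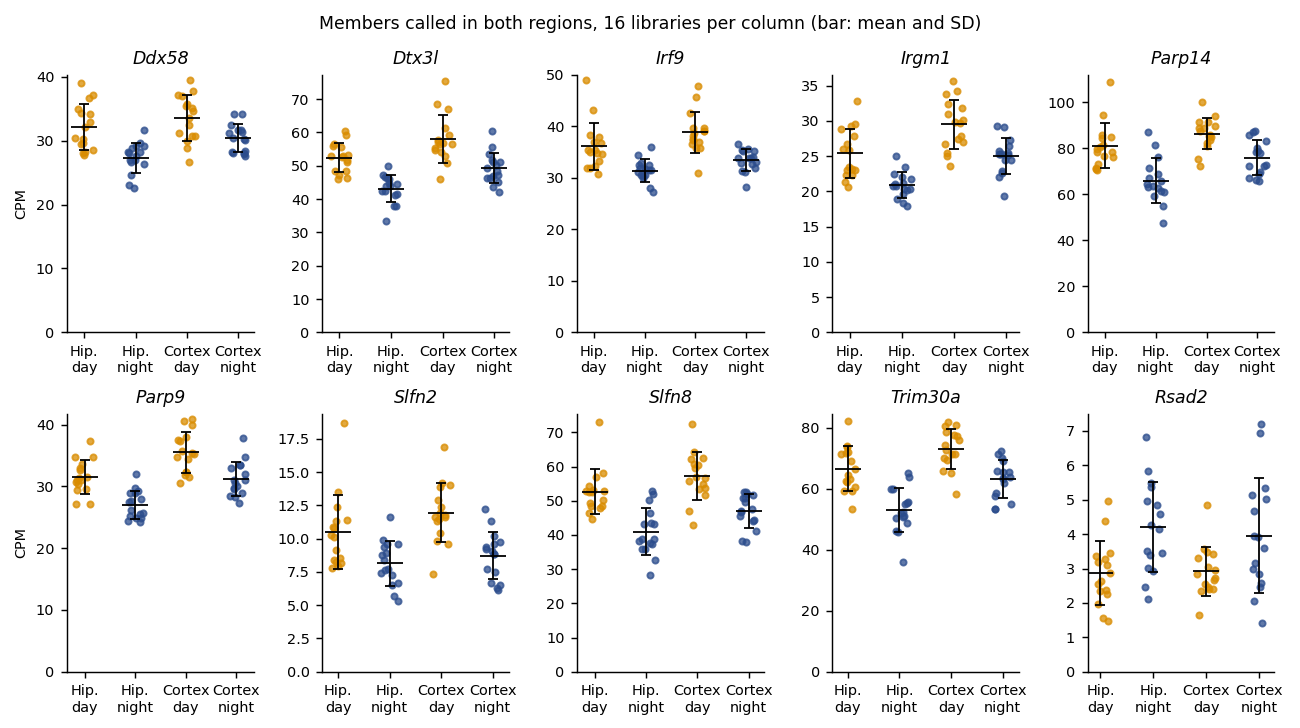
CPM of the 10 genes called in both regions, 1 point per library with 16 libraries per column, and bars for the mean and SD. Day libraries of the first 9 genes sit above night libraries with overlap, as for Dtx3l in the hippocampus (45.9 to 60.3 against 33.5 to 50.0 CPM), and Rsad2 runs the other way.

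**Figure D2:**
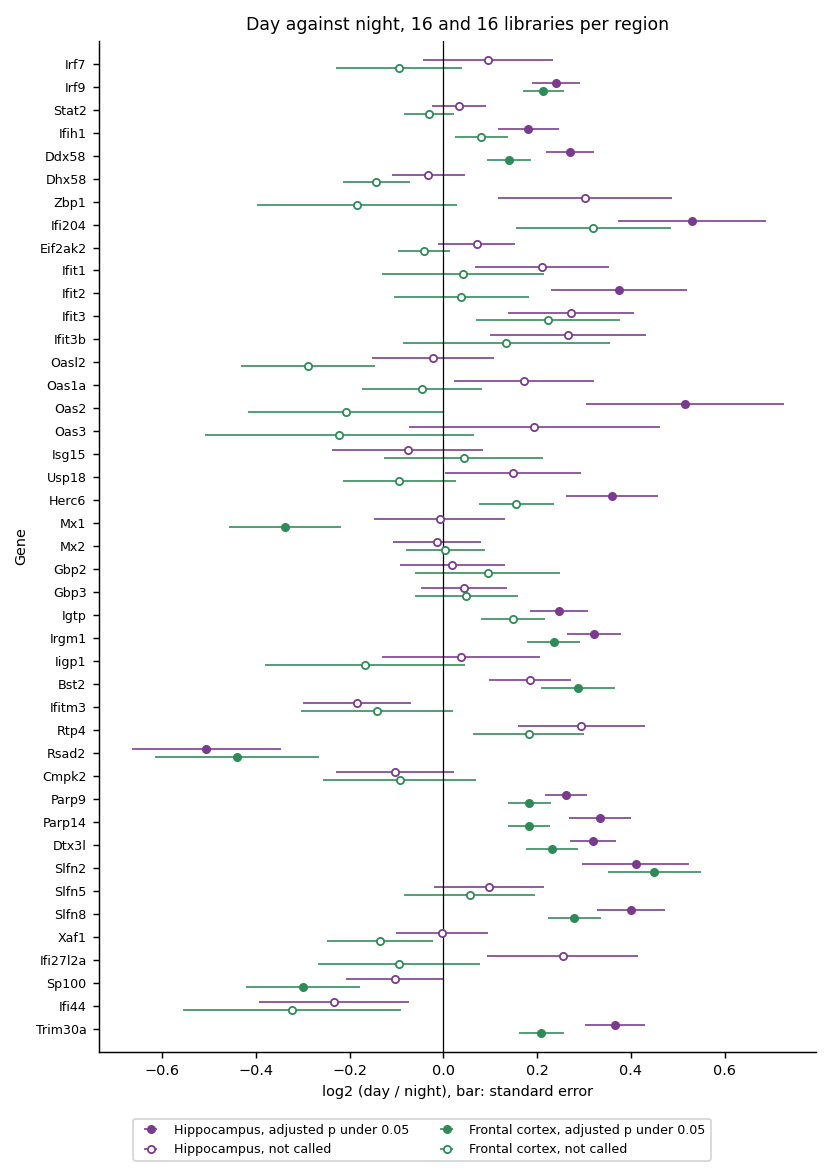
Log2 change of day over night with its standard error for the 43 genes in both regions, filled where the adjusted p was under 0.05. Rsad2 lies at -0.51 and -0.44, and the PARP and DTX3L genes lie between 0.18 and 0.33.

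The regions were compared next. 13 of the 43 genes differed, against 16.6% of the 16069 genes tested, and the 13 were all lower in the hippocampus (6.17% of all genes were lower and 10.4% higher). At an unadjusted p under 0.05 there were 24, against 29.4% of all genes. The median log2 difference of hippocampus over cortex was -0.16 for the members and -0.005 for all genes, and 40 of the 43 were negative. The size of the differences was small for the abundant genes. Irgm1 ranged from 17.9 to 32.8 CPM (median 22.4) in 32 hippocampal and from 19.3 to 35.7 CPM (median 26.5) in 32 cortical libraries, a log2 difference of -0.24 ± 0.041 (adjusted p = 1.03e-05). Parp9 differed by -0.19 ± 0.032 (adjusted p = 8.1e-06), Trim30a by -0.19 ± 0.040 (adjusted p = 0.000263), Dtx3l by -0.17 ± 0.036 (adjusted p = 0.000308) and Parp14 by -0.15 ± 0.040 (adjusted p = 0.00616).

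Oas3 and Oas2 had the largest regional differences, and the other 2 OAS genes were not called. Oas3 ranged from 0.116 to 2.18 CPM (median 0.732) in the hippocampus and from 0.163 to 3.8 CPM (median 1.15) in the cortex, a log2 difference of -0.65 ± 0.201 (adjusted p = 0.0174). Oas2 had medians of 3.12 and 4.67 CPM and differed by -0.51 ± 0.152 (adjusted p = 0.0145). The ranges of both genes overlapped almost fully. Dhx58 (-0.19 ± 0.053, adjusted p = 0.00637), Slfn8 (-0.16 ± 0.047, adjusted p = 0.0116) and Ddx58 (-0.11 ± 0.035, adjusted p = 0.0251) were also called, together with Irf9, Igtp and Mx2. Ifitm3, Bst2, Isg15, Rsad2 and the IFIT genes did not pass.

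Of the other cell types, all 6 choroid plexus markers were higher in the hippocampus and 5 of 6 monocyte and neutrophil markers were lower, as were 2 of 8 microglia and 3 of 7 border macrophage markers. With marker levels as covariates 6 of the 43 genes were called, 5 of them among the 13, all lower in the hippocampus. Library totals alone moved the median of all genes to -0.11 and called 22, again all lower. Without the replicate 2 libraries 7 were called. In the replicate 4 libraries alone 0 were called by edgeR, with 4 at an unadjusted p under 0.05. The shares of all genes called in these refits are not given here.

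The conditions, averaged over day and night, separated none of the 43 genes in either region. edgeR called 0 members and 0 of all genes in each (0% of 16826 genes in the hippocampus and of 16238 in the cortex). At an unadjusted p under 0.05 it found 1 member in the hippocampus, Ifit3b (adjusted p = 0.668), against 6.48% of all genes, and 2 in the cortex, Irf9 and Gbp3 (adjusted p = 0.72 for both), against 6.74%. DESeq2 also called 0 members in both.

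The day and night difference itself took different signs in different conditions. In the cortex 41 of the 43 genes had a higher mean log2 CPM by day in Soci and 38 in Cogn, but 14 did in Ctr0 and 12 in Ctr1. The members' median difference was 0.33 in Soci, 0.23 in Cogn, -0.10 in Ctr0 and -0.29 in Ctr1, while the medians of all genes lay between -0.038 and -0.005. In the hippocampus the counts were 38, 37, 25 and 17 and the medians 0.30, 0.21, 0.077 and -0.094. The hippocampal Soci value rested on Day Soci replicate 4: without it 30 genes were higher by day and the median was 0.13, below that of Cogn. The Cogn median was 0.12 without Day Cogn replicate 4 and also without Night Cogn replicate 1. Without any single library the cortical medians ran from 0.286 to 0.467 in Soci, 0.165 to 0.281 in Cogn and -0.481 to -0.231 in Ctr1. In cortical Ctr0 they ran from -0.205 to 0.008, the last without Day Ctr0 replicate 3, so its sign depended on that library. In hippocampal Ctr0 they ran from 0.001 to 0.203, and in Ctr1 from -0.166 to -0.016. Genes of the program vary together between libraries, so these counts are not independent observations.

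**Figure D3:**
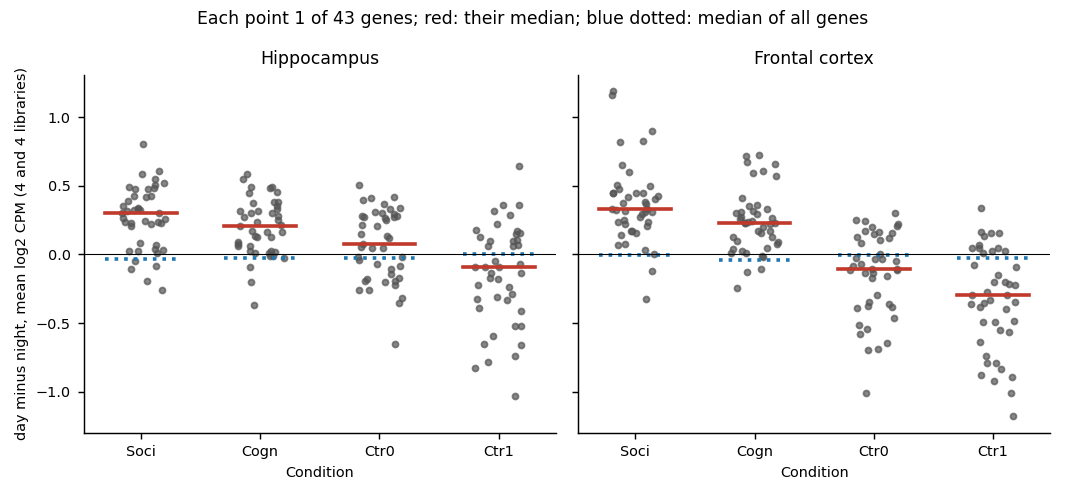
Difference of day minus night in mean log2 CPM for each of the 43 genes (points) in each condition and region, from 4 and 4 libraries, with the median of the 43 genes in red and of all genes in blue. The red medians descend from 0.33 in Soci to -0.29 in Ctr1 in the cortex and from 0.30 to -0.094 in the hippocampus, where Soci falls to 0.13 without Day Soci replicate 4, and the blue ones stay between -0.038 and 0.001.

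The test of whether the day and night change differed among conditions called 0 of the 43 genes in the hippocampus (0% of 16826 genes) and 0 in the cortex (0.00616% of 16238 genes). At an unadjusted p under 0.05 edgeR found 5 members in the hippocampus (Cmpk2, Ifit1, Oasl2, Slfn2 and Usp18), against 4.13% of all genes, and 15 in the cortex, against 3.71%. Neither region had a member that passed the correction in edgeR, and DESeq2 called 0 members in the hippocampus and 1 in the cortex.

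Iigp1, an immunity-related GTPase, had the lowest p of the cortex (adjusted p = 0.192). Its night libraries read 4.35, 7.99, 6.41 and 6.95 CPM in Ctr1 and 2.73, 1.26, 2.20 and 2.45 CPM in Soci. Its day libraries read 3.02, 4.21, 2.80 and 1.5 CPM in Ctr1 and 3.07, 3.45, 3.87 and 4.88 CPM in Soci. The night Ctr1 libraries all lay above the day Ctr1 libraries, and the day Soci libraries all lay above the night Soci libraries. The mean log2 difference of day minus night was -1.18 ± 0.350 (SE) in Ctr1, -0.70 ± 0.326 in Ctr0, 0.725 ± 0.220 in Cogn and 0.82 ± 0.272 in Soci. DESeq2 called this gene in the cortex, as its single member call.

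Ifi204 followed in the cortex (adjusted p = 1). Its libraries read 7.56, 7.76, 7.19 and 8.51 CPM in Day Soci and 3.87, 2.20, 4.16 and 3.43 CPM in Night Soci, without overlap, and its difference in that condition was 1.19 ± 0.205. In Ctr1 it was -0.275 ± 0.240. In the hippocampus the differences of Ifi204 were 0.58 ± 0.287 in Soci, 0.59 ± 0.372 in Cogn, 0.41 ± 0.419 in Ctr0 and 0.65 ± 0.285 in Ctr1. Irf7 went from 0.43 ± 0.271 in Soci to -0.56 ± 0.219 in Ctr1, Oasl2 from 0.235 ± 0.238 to -0.88 ± 0.279, and Rsad2 from 0.45 ± 0.354 to -0.89 ± 0.292. The hippocampal differences of Oasl2 were 0.30 ± 0.310 in Soci and -0.65 ± 0.152 in Ctr1, and those of Rsad2 were -0.10 ± 0.410 and -1.03 ± 0.333.

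Other genes kept the sign of their mean difference. Irf9, Ddx58, Herc6, Igtp, Irgm1, Parp9, Parp14, Dtx3l, Slfn8 and Trim30a, or 10 of the 43 (23.3%, against 17.1% of all genes), had the higher mean by day in all 8 pairs of region and condition. Trim30a, for example, differed by 0.255 ± 0.106 in Soci, 0.26 ± 0.079 in Cogn, 0.20 ± 0.128 in Ctr0 and 0.13 ± 0.091 in Ctr1 of the cortex. In cortical Ctr1 several of the 10 were within their SE of 0, such as Ddx58 (0.009 ± 0.074), Herc6 (0.027 ± 0.204), Irgm1 (0.029 ± 0.080) and Parp14 (0.045 ± 0.073). In the other direction, 0 members were lower by day in all 8 pairs, against 18% of all genes. A higher mean by day in all 8 pairs was thus shared with many other genes. The absence of the lower direction among the members was not tested. 11 members, among them Irf7, Stat2, Oasl2, Isg15, Usp18, Iigp1 and Cmpk2, were higher by day in 4 of the 8 pairs (25.6%, against 8.36% of all genes).

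Border macrophage markers had their widest gap between day and night in the same cortical conditions. Their median summed level was 432 CPM by day and 187 CPM by night in Soci, 430 and 180 CPM in Cogn, 312 and 238 CPM in Ctr0, and 285 and 258 CPM in Ctr1. In the hippocampus the gap was widest in Ctr0, at 384 and 178 CPM. There it was 288 and 139 CPM in Soci, 370 and 198 CPM in Cogn, and 240 and 147 CPM in Ctr1. 3 of the 7 were at an unadjusted p under 0.05 for the cortical change by condition, and 0 passed the correction. Endothelial markers were high in cortical Night Ctr1 (median 1010 CPM, against 556 CPM by day). In the cortex they stood at 490 CPM by day and 406 CPM by night in Soci, 559 and 620 CPM in Cogn, and 522 and 606 CPM in Ctr0. Of these markers, 0 of 6 reached an unadjusted p under 0.05. The part of either list in the pattern was not tested alone. With marker levels of the other cell types as covariates, 3 members remained at an unadjusted p under 0.05 in the cortex and 0 in the hippocampus. Without the cortical Night Ctr1 replicate 2 library 13 did. The shares of all genes in these refits are not given here.

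**Figure D4:**
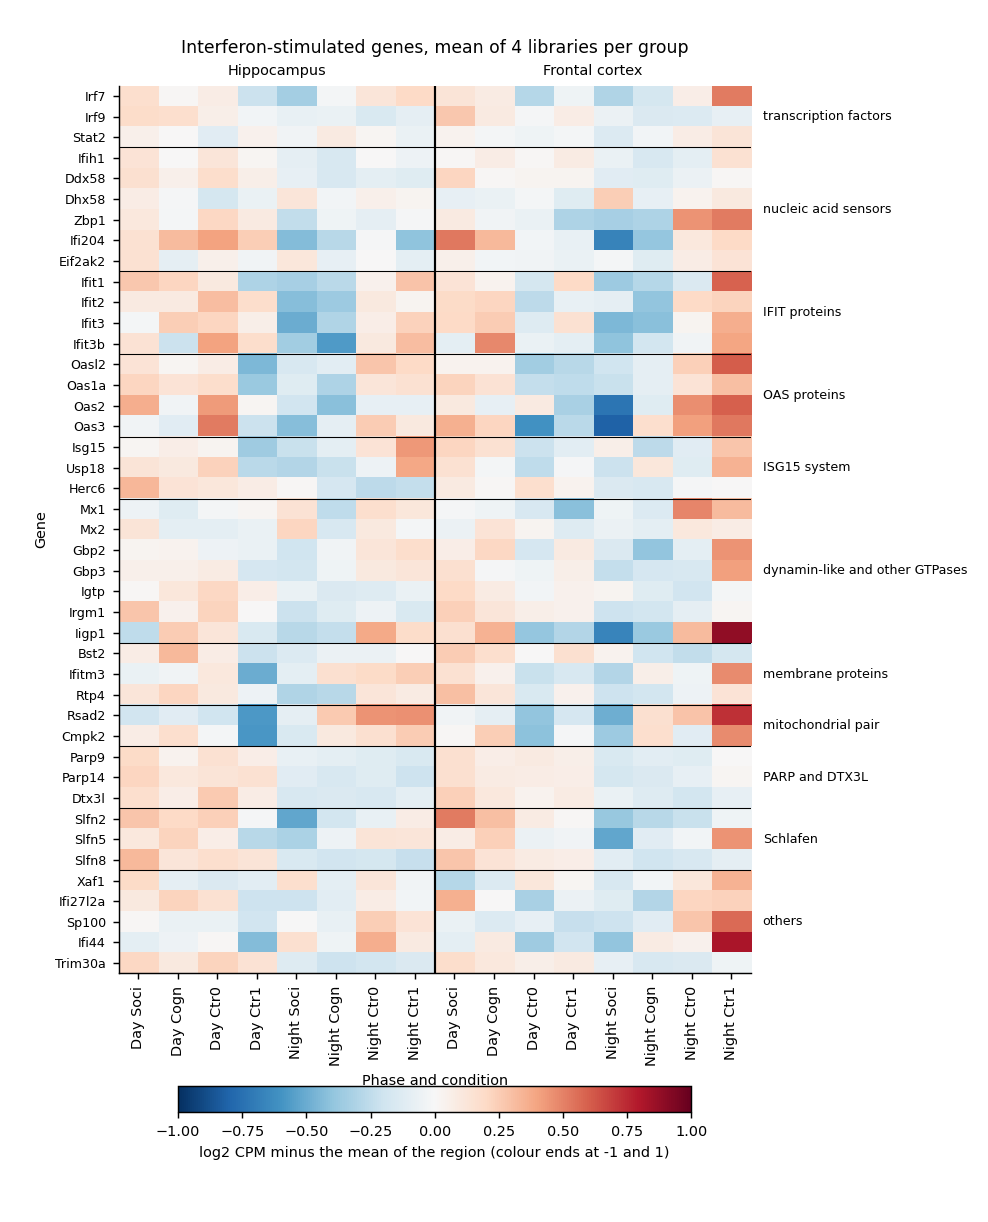
Mean log2 CPM of 4 libraries in each of the 16 groups, minus the mean of the region, for the 43 genes ordered by role, with colours ending at -1 and 1. Cortical Night Ctr1 is the highest group for 24 genes and Night Soci the lowest for 20.

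By group, cortical Night Ctr1 had the highest mean log2 CPM of the 8 cortical groups for 24 of the 43 genes (14.9% of all genes) and Day Soci for 14 (23.4% of all genes). Night Soci was the lowest for 20 (9.28% of all genes) and Night Cogn for 10 (10.7%). In the hippocampus Day Soci was highest for 11 (18.8% of all genes), Day Ctr0 for 10 (12%) and Night Ctr1 for 9 (15.4%), and Night Soci was lowest for 15 (10.5%). Rsad2 averaged 5.67 ± 1.86 CPM (SD, n = 4) in cortical Night Ctr1 and 2.39 ± 0.918 CPM in Night Soci. Irf7 averaged 9.35 ± 1.57 and 5.42 ± 1.84 CPM in the same groups. Their libraries did not fully separate for either gene: Rsad2 reached 3.61 CPM in Night Soci and fell to 3.16 CPM in Night Ctr1.

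The genes were also followed by single library. The mean of the 43 log2 CPM values, centred on the region, served as a level of the program in each library, without a test. It ran from -0.33 to 0.645 in the hippocampus and from -0.415 to 0.47 in the cortex. In summed CPM the hippocampal libraries ranged from 586 to 920 by day (mean 689 ± 80.9, SD, n = 16) and from 490 to 674 by night (607 ± 50.8). The cortical libraries ranged from 600 to 864 by day (743 ± 69.3) and from 576 to 820 by night (684 ± 66.6).

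Hippocampal Day Soci replicate 4 stood apart, at 0.645 against 0.075, -0.11 and -0.17 in the other 3 libraries of its group. All 43 genes were above the regional median there (51.2% of all genes were), and 27 of the 43, or 62.8%, had their highest hippocampal value in it (4.07% of all genes). Irf7 read 10.9 CPM there and 5.66, 4.51 and 6.12 CPM in the other 3 libraries. Oas2 read 8.94 CPM against 2.80, 2.99 and 4.43, Oasl2 13.9 CPM against 5.61, 6.03 and 8.33, and Slfn2 18.7 CPM against 7.76, 10.9 and 9.11. Isg15 read 2.88 CPM against 1.67, 1.35 and 1.11. Dtx3l did not follow, at 52.9 CPM between 48.4 and 60.3.

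This library had 11.6 M counts, the lowest total of the region. Its endothelial markers summed to 602 CPM and its border macrophage markers to 394 CPM, both inside the ranges of the other day libraries, and its choroid plexus markers to 75.5 CPM. The border macrophage sum was the highest of its group (213, 361 and 214 CPM in the others). Its neutrophil and monocyte markers summed to 33.8 CPM, against 16.4, 19.7 and 10.8 CPM in the others. Both lists were also high in the next 2 day libraries by level, Day Ctr0 replicate 3 (394 and 34.5 CPM) and Day Cogn replicate 4 (404 and 29.1 CPM). The highest border macrophage sum of the region was in Day Cogn replicate 2 (424 and 14.4 CPM), at a level of 0.024. Day Ctr0 replicate 4 had 373 and 24.1 CPM at a level of -0.153. The part of the 2 lists was not tested. Without Day Soci replicate 4, 13 of the 16 hippocampal calls between day and night stayed, and the members' median was 0.13.

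In the cortex Night Ctr1 replicate 2 was the highest library, at 0.47, with the highest cortical value of 14 genes (32.6% of them, and 7.67% of all genes). Its endothelial markers summed to 1680 CPM, the highest of any cortical library. Slfn5 read 55.3 CPM in it and 25, 33.1 and 38.2 CPM in the rest of its group, and Ifi44 read 4.50 CPM against 1.61, 3.31 and 3.42. Night Ctr1 replicate 4 and Day Soci replicate 4 followed at 0.39 and 0.37. The lowest cortical libraries were Night Soci replicate 2 at -0.415 and Day Ctr0 replicates 3 and 1 at -0.39 and -0.34. Without Night Ctr1 replicate 2, 11 of the 13 cortical calls between day and night stayed.

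**Figure D5:**
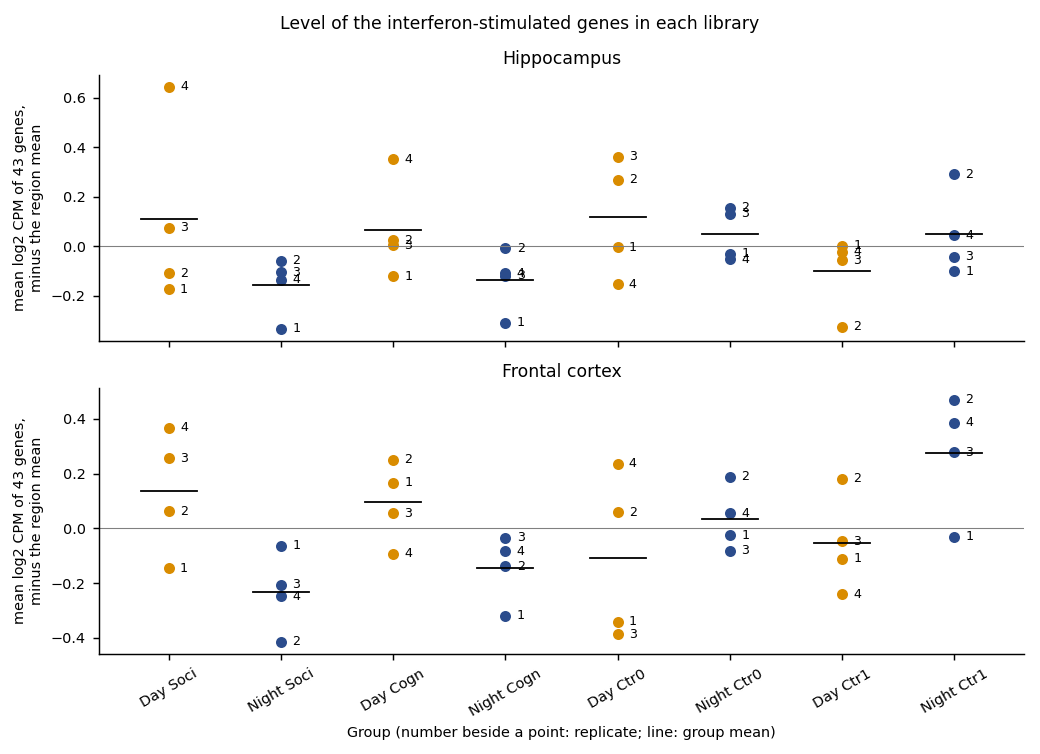
Mean log2 CPM of the 43 genes minus the mean of the region in each of the 64 libraries, by group, with the replicate number beside each point and a line at the group mean. Hippocampal Day Soci replicate 4 sits at 0.645, above every other library, and 3 of the 4 cortical Night Ctr1 libraries sit between 0.28 and 0.47.

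Libraries of the same phase, condition and number in the 2 regions were also set side by side. Day Soci replicate 4 was high in both regions (0.645 and 0.37), as was Night Ctr1 replicate 2 (0.29 and 0.47), and Night Cogn replicate 1 was low in both (-0.31 and -0.32). The hippocampal Night Cogn replicate 1 library was unusual for genes at large. In it 17.3% of all genes had their highest hippocampal value and 11% their lowest, the largest shares of the region. It gave the lowest night values of Dtx3l, Parp14, Slfn8, Trim30a and Ddx58 in that region. Its low level is therefore not read as particular to the members. Day Ctr0 replicate 3 was high in the hippocampus and low in the cortex (0.36 and -0.39). Over the 32 pairs the correlation was 0.26, and 0.056 after the group means were removed, with 16 pairs on the same side of their group means. The labels did not say whether a shared number marks a shared animal.

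Genes of the program differed in how steady they were. The SD of log2 CPM within groups was largest for Oas3 (0.735), Oas2 (0.570), Ifi44 (0.508) and Zbp1 (0.504). Genes of like level had a median of 0.457 beside Oas3 and of 0.292 beside Oas2, but of 0.452 beside Ifi44 and 0.441 beside Zbp1, so these last exceeded it little. Irf9 was the steadiest, at 0.106, followed by Parp9 at 0.122 and Dtx3l at 0.128, beside medians of 0.133, 0.147 and 0.128 for genes of like level.

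Within groups the members moved together. The median correlation of the 903 pairs over the 64 libraries, after group means were removed, was 0.34, and 90.3% of the pairs were positive. The closest pairs were Slfn8 with Trim30a (0.893), Parp14 with Slfn8 (0.870) and Oasl2 with Sp100 (0.841). Bst2 and Stat2 moved least with the others, with mean correlations of 0.063 and 0.079, and the lowest of all pairs was Stat2 with Dtx3l (-0.51). These values share libraries and scaling and are descriptions. Outside the list, Gbp9 (0.766), the large ubiquitin ligase gene Rnf213 (0.757) and Ifi47 (0.728) were the genes most like the mean of the members among 14282 genes. The correlation of that mean with marker levels over the 64 libraries was 0.41 for endothelial cells, 0.23 for border macrophages, 0.215 for neutrophils and monocytes and -0.15 for microglia, and it was -0.004 for the total count.

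The rest of the pathway was read from its own lists. The 21 interferon genes had 76 counts over all libraries together, none passed the filter, 8 had no read at all and no library held more than 4 counts of any. Ifnb1 had 8 counts and Ifng 10. Of 8 receptor and kinase genes tested, 5 rose by day in each region, where 23.4% (hippocampus) and 20.6% (cortex) of all genes rose. Of all genes, 18.8% fell in the hippocampus and 21.3% in the cortex. These shares also stand behind the lists that follow. Ifngr1, a chain of the type II interferon receptor, changed by 0.47 ± 0.054 (adjusted p = 4.39e-08) in the hippocampus and 0.45 ± 0.080 (adjusted p = 4.55e-05) in the cortex. Jak1 changed by 0.44 ± 0.051 and 0.385 ± 0.053. Ifnar1 (0.006 ± 0.045 and -0.076 ± 0.048) and Ifnar2 (0.066 ± 0.034 and 0.086 ± 0.043) did not pass.

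Of 13 signal transducers and regulators, 9 rose and 1 fell in the hippocampus and 8 rose and 0 fell in the cortex. Irf2 changed by 0.35 ± 0.041 and 0.265 ± 0.037, and Irf8, which is needed for microglial identity, by 0.27 ± 0.056 and 0.21 ± 0.041. Of 13 sensors and adaptors, 8 rose and 1 fell in the hippocampus and 7 rose and 1 fell in the cortex. Tlr7, the endosomal receptor for single-stranded RNA, changed by 0.96 ± 0.095 (adjusted p = 3.18e-09) and 0.86 ± 0.10 (adjusted p = 7.83e-08). It had the largest rise of its list, whose lowest changes were -0.355 and -0.417. Irf2 also had the largest rise of its list, whose lowest changes were -0.145 and -0.076. Of 8 microglia markers 7 rose in the hippocampus and 4 in the cortex. Their part in these changes was not tested. Of 58 other interferon-induced genes, 22 rose and 5 fell in the hippocampus and 12 rose and 5 fell in the cortex. In either direction 46.6% of them were called in the hippocampus, against 42.2% of all genes, and 29.3% in the cortex, against 41.8%. Their median log2 changes were 0.082 and 0.021. In the comparison of regions 17 of 63 of them were lower in the hippocampus (6.17% of all genes) and 0 were higher.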

How the data were processed

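The authors aligned reads of rRNA-depleted total RNA to GRCm38.p5 with STAR 2.7.3a and deposited raw counts per gene made with featureCounts of Subread 2.0.0, per the submitters' processing notes. Symbols came from GENCODE for 49412 of the 49671 gene identifiers. The 43 genes, the pathway lists and the marker lists were chosen with earlier results of these data known. Groups followed the labels, which did not say that libraries of a group came from separate animals, so p-values measure the spread between these samples, which may be technical. The 96 replicate pairs differed by more than sampling noise (lowest chi-square per degree of freedom 7.65), and 0 were identical.

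Counts were scaled by TMM factors, filtered with filterByExpr and tested over all genes with edgeR 4.0.16 (quasi-likelihood, in R 4.3.3), with Benjamini-Hochberg adjustment and a threshold of 0.05. Each region was fitted alone for day against night and for conditions, and both together for regions. Levels are CPM, and log2 levels used a prior count of 2. Marker covariates were the mean log2 levels of 7 lists of other cell types. Lengths are summed exon lengths. Reads were assigned by strand: short genes lying inside a longer gene had a median of 879 counts per kb on its strand and 1.99 on the other. The steps were tested on simulated counts. Called genes were named, the 10 of lowest p in each comparison in full. Isg15, Irf7, Stat2, the genes most variable within groups and the 3 genes most like the mean were fixed as further examples. Other values shown for genes were picked after they were seen. DESeq2 1.42.0, other scaling, other filters, blocks and left-out libraries were the alternatives. Intervals for single counts were not used.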

Additional observations from a re-analysis of the deposited data

Results flagged for a closer look

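In groups of 4 libraries, a highest or lowest value was picked out where its gap to the nearest library exceeded Dixon's critical share of the range of the group. Of 192 groups examined 9 met this, and chance gives about 1 in 20, or 9.6. Oas3 read 0.163 CPM in cortical Night Soci replicate 4, against 0.897 to 1.03 CPM in the other 3 libraries, and 2.18 CPM in cortical Day Ctr0 replicate 4, against 0.375 to 0.611 CPM. Ifi44 read 2.74 CPM in hippocampal Night Soci replicate 2, against 1.40 to 1.60 CPM. Zbp1 read 1.67 CPM in hippocampal Night Cogn replicate 2, against 1.12 to 1.21 CPM. Ifit3b read 2.29 CPM in hippocampal Day Soci replicate 4, against 1.24 to 1.37 CPM, and 2.25 CPM in hippocampal Day Ctr0 replicate 2, against 1.61 to 1.72 CPM. Stat2 read 41.2 CPM in hippocampal Night Cogn replicate 1, against at most 31.9 CPM, and 36.6 CPM in cortical Night Soci replicate 1, against 26.1 to 26.9 CPM. The hippocampal library held the highest hippocampal value of 17.3% of all genes. Stat2 was low in cortical Day Ctr1 replicate 3, at 27.9 CPM against 32.3 to 32.8 CPM.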

How the results depend on the processing

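With library totals alone, calls between day and night fell to 1 in the hippocampus (0 higher, 1 lower) and 3 in the cortex (1 higher, 2 lower). Regional calls rose to 22, and 4 hippocampal genes (Irf9, Stat2, Bst2 and Xaf1) were called between conditions. The shares of all genes called with library totals are not given here, so these counts are not read as particular to the members. Their cause was not tested. With marker levels of other cell types as covariates, 0 were called between day and night in the hippocampus and 10 in the cortex (0 higher), where Irgm1 stood at -0.070, and 6 between regions; the cause was not tested. Leaving out each replicate number in turn gave 9 to 15 calls in the hippocampus, 10 to 13 in the cortex and 7 to 13 between regions, and 0 in the other comparisons. The replicate 4 libraries alone gave 0 between regions, with fewer samples. Shares of all genes with a replicate number left out are not given, so these counts are not read as particular to the members. DESeq2 called 1 gene, Iigp1, for the change by condition in the cortex. Left-out single libraries (also for the medians by condition), the replicate 4 libraries alone, and the marker covariates for regions and for the change by condition were chosen after seeing the data.

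Same-numbered libraries of different groups had a correlation over 0.1 in 39 of 112 hippocampal, 48 of 112 cortical and 12 of 32 pairs between regions, so the numbers were not taken to pair the samples, although a shared animal or day cannot be told from this. With the replicate number as a block, 15 and 12 genes were called between day and night. Between regions 16 were called, or 15 with blocks of region pairs. The block gave 0 calls for conditions, for the change by condition and for the change by region. The shares of all genes called with blocks are not given here.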
